A study of Xenopus laevis with 6 samples.

Results

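The genes that write, erase, read and move the marks and nucleosomes of chromatin were followed in tadpole brain after an injection of leptin. A gene was included when its symbol in the array annotation began with *brd*, *hdac*, *kdm*, *kmt*, *kat*, *smarc* or *chd* before a number, or was *set*, *ezh2*, *eed*, *suz12*, *sin3a*, *rbbp4*, *rbbp7*, *ep300* or *crebbp*. The symbols of microtubule-severing katanins, which also begin with *kat*, were left out. This rule took 51 of the 11303 genes that had at least 1 probe set with a single symbol, and it used names only. *Xenopus laevis* carries duplicated chromosomes, and the L and S copies of a gene (homeologs) were counted as separate genes. The 51 genes had 77 probe sets, a probe set being a group of short probes for 1 transcript. Every probe set of *brd2* and *set* was kept and, for each other gene, the probe set with the highest mean over the 6 arrays, which gave 55. Both *brd2* and *set* are in the study's list of top induced genes from the same arrays. *rbbp7* and *ep300* were not analysed here.

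DNA in the nucleus is wound on histones, and access to it is set in part by enzymes that add or remove acetyl and methyl groups on histone tails. Acetyl groups added by acetyltransferases are bound by proteins with a bromodomain and removed by histone deacetylases, while methyl groups are added and removed by the methyltransferase and demethylase families. ATP-driven remodelers of the SWI/SNF, ISWI and CHD families slide or evict nucleosomes, and histone chaperones carry free histones. In developing brain these proteins take part in the passage of dividing progenitors into neurons and glia.

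Samples came from NF stage 54 tadpoles (Nieuwkoop–Faber staging), bred and raised in the laboratory. One group received recombinant *Xenopus* leptin (rxLeptin) at 20 ng/g BW and the other 0.6% saline, both by i.c.v. injection, that is, into the fluid-filled ventricle of the brain. Tissue was taken 2 h later from the preoptic area, the hypothalamus and, by the sample labels, the pituitary. RNA of 3 brains was pooled for each array and 3 pools were hybridised per treatment to an Affymetrix expression array for *X. laevis*. The pools are numbered 1 to 3 within a treatment only as names, and a number shared by an rxLeptin pool and a saline pool does not pair them. The question was which of these genes differed in mRNA level shortly after leptin reached the brain.

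All values are log2 expression values, so a difference of 1 is a doubling of signal, and the number of arrays limits their precision. Markers of the labelled tissue were present, with *nkx2-1.L*, a transcription factor gene of the ventral hypothalamus, at a mean of 10.04 over the arrays and the pituitary hormone gene *gh1.S* at 12.66 to 13.58 in rxLeptin pools and 13.43 to 13.62 in saline pools. The mean level of the 8 hypothalamus and preoptic area marker genes was 9.86 to 10.11 in rxLeptin pools and 10.12 to 10.23 in saline pools, so the groups did not overlap, and none of the 8 passed the test. That of the 8 pituitary marker genes was 8.75 to 9.32 in rxLeptin pools and 9.29 to 9.59 in saline pools, with overlap. The saline pools were less alike than the rxLeptin pools. In control probe sets for *actin*, the signal at the 3′ end exceeded that in the middle of the transcript by 0.67, 0.60 and 0.66 in the rxLeptin pools and by 2.83, 1.61 and 0.77 in the saline pools. For *gapdh* the 3′ signal exceeded the 5′ signal by 1.11, 0.94 and 0.93 in rxLeptin pools and by 2.71, 1.18 and 1.02 in saline pools. For *ef1a* it did so by 2.93, 2.83 and 3.24 in rxLeptin pools and by 4.47, 3.72 and 3.05 in saline pools. A large gap of this kind is a usual sign of shortened RNA. Saline pool 3 lay inside the range of the rxLeptin pools for *gapdh* and *ef1a* but not for *actin*. The mean level of the 8 muscle marker genes was 6.70 to 6.79 in rxLeptin pools and 7.06 to 7.15 in saline pools, and 3 of the 8 fell. That of the 11 neuron marker genes was 10.79 to 10.99 in rxLeptin pools and 10.75 to 10.97 in saline pools. The part of RNA integrity and of tissue composition in the results that follow was not tested, and in bulk tissue fewer cells of a type and less RNA per cell cannot be told apart.

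Of the 55 probe sets, 3 rose after rxLeptin (*brd1.L*, *set.S* and *hdac1.S*), 2 fell (*brd2.S* and *kmt5a.S*) and 50 did not pass the test. The test was limma with array weights and Benjamini-Hochberg adjustment over all 32539 probe sets, at an adjusted p below 0.05. Among all probe sets 2.75% rose, 1.55% fell and 4.29% were called either way, against 9.09% of the members. The called *brd2.S* and *set.S* probe sets were members only because every probe set of these genes was kept. With only the probe set of highest mean for each of the 51 genes, 2 rose (*brd1.L* and *hdac1.S*) and 1 fell (*kmt5a.S*), or 5.88%. Of all genes treated in this way 1.61% rose, 1.69% fell and 3.3% were called. At an unadjusted p below 0.05, 11 members were higher and 7 lower after rxLeptin, while 12.9% of all probe sets were higher and 12.9% lower. The adjusted p-values of the 5 called members lay between 0.0409 and 0.0441, close to the threshold. None of the 55 members and 0 of all probe sets passed in limma without array weights, where 14 members and 6037 of all probe sets had an unadjusted p below 0.05. None of the 5 passed without saline pool 1 or 2, or without any 1 of the rxLeptin pools. Of all probe sets, 0 passed without saline pool 1, saline pool 2 or rxLeptin pool 1. Only 1 rose and 0 fell without rxLeptin pool 2, and 2 rose and 6 fell without rxLeptin pool 3. Without saline pool 3, 4 of the 5 passed and *brd1.L* did not, while *kmt5a.L*, not called in the reported fit, passed. In that fit 1315 of all probe sets rose and 379 fell. More members passed in fits that call more probe sets on the whole array. With array weights estimated by REML 15 of the 55 passed, against 22.8% of all probe sets, and after a filter on the interquartile range 8 of the 28 members that were kept passed, against 24.5% of the probe sets kept.

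Counted without a model, the 3 rxLeptin values and the 3 saline values did not overlap in 21 of the 55 probe sets, 13 of them higher after rxLeptin and 8 lower. That is 38.2% of the members, and among all probe sets 25.1% did not overlap, 11.7% higher and 13.4% lower. With 1 probe set per gene the share was 35.3%, against 27.7% of all genes. The members also had higher signal, with a median level of 10.13 against 7.34 over all probe sets and 8.71 over all genes with 1 probe set each. The part of signal level in these shares was not tested. Most differences were small. The rxLeptin mean minus the saline mean had a median of 0.04 over the members, with quartiles at -0.10 and 0.23, and a median of -0.03 over all probe sets. In 48 of the 55 the difference was under 0.5 in size, and the extremes were -1.27, in *brd2.S*, and 0.72, in *set.S*. Saline pool 1 was the saline pool farthest from the rxLeptin mean in 31 of the 55, or 56.4%, against 57.6% of all probe sets. Saline pool 3 lay inside the rxLeptin range in 36.4% of the members and in 42.8% of all probe sets.

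**Figure D1:**
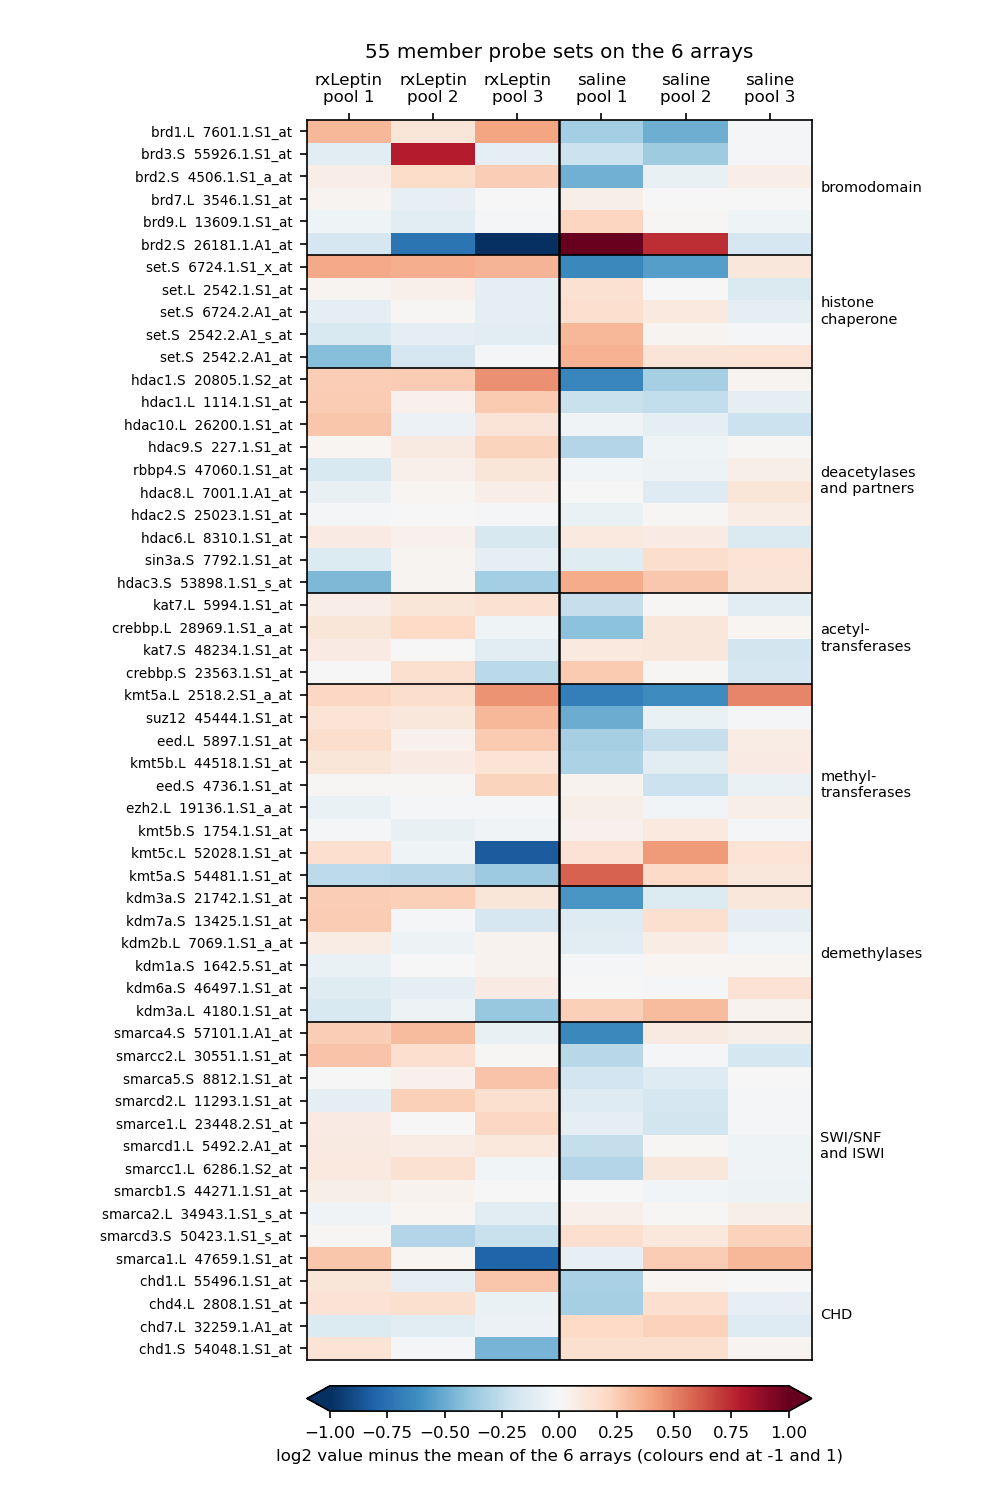
Log2 value of each of the 55 member probe sets (rows, grouped by role and named by gene and probe set) minus its mean over the 6 arrays (columns, rxLeptin pools left of saline pools), with red above and blue below that mean and colours ending at -1 and 1. The largest differences between group means are in the *brd2.S* probe set that fell, the *set.S* probe set that rose and *hdac1.S*. Strong colour in a row can also come from a single pool, such as rxLeptin pool 3 in *kmt5c.L*. Saline pool 3 is paler than saline pool 1 in most rows of strong colour.

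Among the 6 bromodomain probe sets 1 rose and 1 fell. The probe set that fell, of *brd2.S*, was not the *brd2.S* probe set of highest mean. *brd1.L* encodes a scaffold subunit of acetyltransferase complexes of the MYST family. Its values were 8.76, 8.55 and 8.82 in the rxLeptin pools and 8.09, 7.94 and 8.41 in the saline pools. All 3 rxLeptin pools were above all 3 saline pools, of which pool 3 came nearest. *brd1.L* rose by 0.61 (standard error 0.13, adjusted p = 0.0437 in limma), and leaving out 1 array at a time gave 0.40 (without saline pool 2) to 0.75 (without rxLeptin pool 2), with no passing p.

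*brd2* encodes a member of the BET family, whose paired bromodomains bind acetylated histones at active genes. It was measured by a pair of probe sets, both assigned to *brd2.S*, and their differences had opposite signs. In Xl2.26181.1.A1_at the values were 8.31, 7.75 and 7.48 in the rxLeptin pools and 9.81, 9.21 and 8.31 in the saline pools. The groups were just apart here, since the highest rxLeptin value and the lowest saline value differed by only 0.0043. This probe set fell by 1.26 (standard error 0.27, adjusted p = 0.0441), the largest change among the members, and the estimate was -0.89 without saline pool 1 and -1.62 without saline pool 3. In Xl2.4506.1.S1_a_at the values were 11.46, 11.57 and 11.63 in the rxLeptin pools and 10.91, 11.31 and 11.46 in the saline pools. Saline pool 3 lay among the rxLeptin values there, and the log2 fold change of 0.26 (standard error 0.11) did not pass (adjusted p = 0.169). A further probe set with the same cluster number carried no gene symbol in the annotation used here, so it lay outside the rule, and the study's own list names it *brd2*. This probe set, Xl2.4506.1.S2_at, had values of 8.47, 8.996 and 8.82 in the rxLeptin pools and 6.28, 6.68 and 8.82 in the saline pools. Saline pool 3 was again among the rxLeptin pools, and the other saline pools were far below them. It rose by 1.81 (standard error 0.39, adjusted p = 0.0461), and the estimate was 1.06 without saline pool 1, where it did not pass, and 2.32 without saline pool 3. Which of these transcripts each probe set binds was not tested.

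The other bromodomain genes did not pass. *brd3.S*, also of the BET family, was at 5.69, 6.59 and 5.71 in the rxLeptin pools and 5.59, 5.44 and 5.79 in the saline pools. Its log2 fold change of 0.65 (adjusted p = 0.183) came from rxLeptin pool 2, the only pool apart from the rest. *brd7.L* and *brd9.L*, subunits of SWI/SNF complexes, had log2 fold changes of -0.04 and -0.11 with overlapping groups.

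*set* encodes a histone chaperone that masks histone tails from acetyltransferases and also inhibits a protein phosphatase. It had 5 probe sets with a single symbol, and 1 rose. In Xl2.6724.1.S1_x_at, assigned to *set.S*, the values were 10.50, 10.48 and 10.45 in the rxLeptin pools and 9.48, 9.57 and 10.23 in the saline pools. The rxLeptin pools were close together and all above the saline pools. It rose by 0.81 (standard error 0.13, adjusted p = 0.0409), with estimates from 0.58 without saline pool 1 to 0.96 without saline pool 3. The ending _x_at marks a probe set with probes that also match other sequences.

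The other probe sets of *set* did not pass, and those of *set.S* leaned the opposite way. In Xl2.2542.2.A1_at, assigned to *set.S*, the values were 11.12, 11.38 and 11.53 in the rxLeptin pools and 11.90, 11.68 and 11.69 in the saline pools. Every rxLeptin pool was below every saline pool, and the log2 fold change was -0.39 (adjusted p = 0.0868). In Xl2.2542.2.A1_s_at, a *set.S* probe set whose ending marks probes shared among transcripts, the values were 13.26, 13.32 and 13.30 in the rxLeptin pools and 13.75, 13.43 and 13.40 in the saline pools. The groups were apart here too, by a narrow margin, and the log2 fold change was -0.17 (adjusted p = 0.262). In Xl2.6724.2.A1_at, the last of *set.S*, the groups overlapped at 11.00, 11.11 and 11.01 in the rxLeptin pools and 11.27, 11.20 and 11.01 in the saline pools. *set.L*, with a log2 fold change of 0.03, was at 12.82, 12.85 and 12.71 in the rxLeptin pools and 12.95, 12.80 and 12.65 in the saline pools. A further probe set was annotated to both copies of *set* and so was not a member. This one, Xl2.6724.1.S1_s_at, was at 11.29, 11.41 and 11.41 in the rxLeptin pools and 8.56, 9.33 and 10.94 in the saline pools. The rxLeptin pools were all higher, with the saline pools spread over more than 2 log2 units. It rose by 1.87 (standard error 0.31, adjusted p = 0.0409), and the estimate was 1.24 without saline pool 1, where it did not pass. This probe set passed in only 1 of the fits that left out 1 array. Without array weights the estimate was 1.76 and did not pass (adjusted p = 0.206 in limma). With the *actin* difference of each array as a covariate it was 0.53 (adjusted p = 0.972 in limma).

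**Figure D2:**
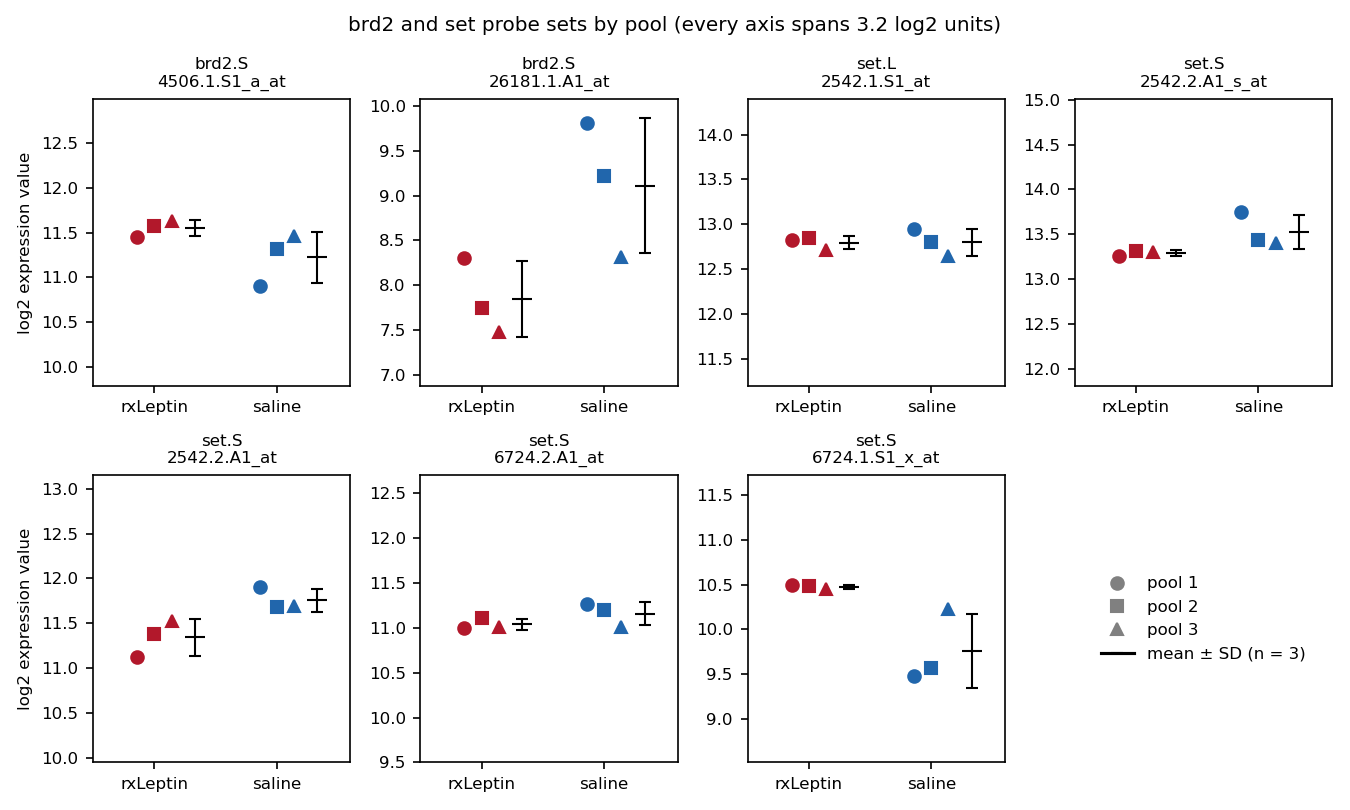
Log2 expression value (vertical axes, each spanning 3.2 log2 units) of every probe set of *brd2* and *set* with a single symbol in the 3 rxLeptin pools (red) and the 3 saline pools (blue), with the mean and SD (n = 3) beside the points and a marker shape for each pool name. The second panel (*brd2.S*) is lower and the last (*set.S*) higher after rxLeptin, by -1.27 and 0.72 between group means, while the remaining 5 differ by 0.41 at most.

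Among the 10 deacetylases and partner proteins, 1 rose and none fell. *hdac1* encodes a class I deacetylase that works within the Sin3, NuRD and CoREST corepressor complexes. *hdac1.S* was at 10.61, 10.62 and 10.82 in the rxLeptin pools and 9.72, 10.03 and 10.39 in the saline pools. The groups were apart by 0.22, the gap to saline pool 3. *hdac1.S* rose by 0.60 (standard error 0.12, adjusted p = 0.0423), and the estimate was 0.44 without saline pool 1 and 0.78 without saline pool 3. Its second probe set, Xl2.20805.1.S1_at, gave the same direction, at 8.79, 8.81 and 8.91 in the rxLeptin pools and 7.18, 7.80 and 8.56 in the saline pools. It rose by 0.97 (standard error 0.18, adjusted p = 0.0421), and the estimate ran from 0.64 without saline pool 1 to 1.33 without saline pool 3. The copy *hdac1.L* was at 10.19, 9.98 and 10.20 in the rxLeptin pools and 9.71, 9.69 and 9.84 in the saline pools. Its saline pools were close together and all below the rxLeptin pools, and its log2 fold change of 0.36 (standard error 0.10) did not pass (adjusted p = 0.0732).

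The remaining deacetylases did not pass. *hdac3.S*, the deacetylase of the NCoR and SMRT corepressors, leaned the other way, at 6.97, 7.45 and 7.08 in the rxLeptin pools and 7.79, 7.69 and 7.55 in the saline pools. Its groups were apart and its log2 fold change was -0.44 (adjusted p = 0.121). A second *hdac3.S* probe set had overlapping groups and a log2 fold change of -0.07. *hdac9.S*, of class IIa, was at 9.40, 9.47 and 9.60 in the rxLeptin pools and 9.09, 9.34 and 9.39 in the saline pools, apart by a small gap, with a log2 fold change of 0.16. *hdac2.S*, the close relative of *hdac1*, had overlapping groups, with a mean of 12.37 ± 0.01 in the rxLeptin pools and 12.38 ± 0.07 in the saline pools (SD, n = 3 each). Groups also overlapped in *hdac6.L* and *hdac8.L* and in *hdac10.L*, whose log2 fold changes were -0.02, 0.06 and 0.17. The scaffold *sin3a.S* and the histone-binding subunit *rbbp4.S* overlapped as well, at -0.17 and 0.03. Another *rbbp4* probe set, annotated to both copies and so not a member, rose by 1.10 (standard error 0.23, adjusted p = 0.0444). Its estimate was 0.70 without saline pool 1, where it did not pass, and it passed in only 1 of the fits that left out 1 array. Without array weights the estimate was 0.88 and did not pass (adjusted p = 0.226 in limma). With the *actin* difference of each array as a covariate it was 0.27 (adjusted p = 0.974 in limma). This Xl2.537.1.S1_s_at was at 7.41, 7.75 and 7.68 in the rxLeptin pools and 6.34, 6.31 and 7.56 in the saline pools, and saline pool 3 lay within the rxLeptin range.

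None of the 4 acetyltransferase genes passed. *kat7.L* encodes the catalytic subunit of a MYST complex that acetylates histones at replication origins and active genes. It was at 12.15, 12.21 and 12.24 in the rxLeptin pools and 11.86, 12.10 and 11.98 in the saline pools, apart but close, with a log2 fold change of 0.16 (adjusted p = 0.292). Its second probe set was apart in the opposite direction, with a log2 fold change of -0.20. *crebbp.L* and *crebbp.S*, copies of a coactivator acetyltransferase, and *kat7.S* had overlapping groups and log2 fold changes of 0.11, 0.03 and -0.05.

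Of the 9 methyltransferase genes and partners, 1 fell and none rose. *kmt5a* encodes the enzyme that adds the first methyl group to a lysine of histone H4 and is tied to the cell cycle. *kmt5a.S* was at 9.80, 9.79 and 9.70 in the rxLeptin pools and 10.66, 10.26 and 10.18 in the saline pools. The rxLeptin pools were tightly placed and the gap of 0.38 to the nearest saline pool was the widest among the 5 called members. *kmt5a.S* fell by 0.52 (standard error 0.10, adjusted p = 0.0421), and the estimate was -0.44 without saline pool 1 and -0.68 without saline pool 3. Both of its other probe sets were also lower on average. Of these Xl2.46189.3.S1_a_at was at 4.78, 4.72 and 4.43 in the rxLeptin pools and 5.70, 5.13 and 5.26 in the saline pools, apart, and its log2 fold change was -0.54 (adjusted p = 0.0544).

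The other copy, *kmt5a.L*, was lower in saline pools 1 and 2 but not in saline pool 3. It was at 7.59, 7.56 and 7.83 in the rxLeptin pools and 6.70, 6.76 and 7.87 in the saline pools, and its log2 fold change of 0.67 (standard error 0.21) did not pass (adjusted p = 0.0906). In limma it passed at 0.89 without saline pool 3 (adjusted p = 0.0168), with REML array weights (adjusted p = 0.0146) and after the interquartile range filter (adjusted p = 0.0132). The estimate was 0.30 without saline pool 1 and -0.08 with the *actin* difference of each array as a covariate, and neither passed. *kmt5b* and *kmt5c* encode the enzymes that add further methyl groups to the same lysine. *kmt5b.S* was apart and slightly lower, at 10.90, 10.84 and 10.88 in the rxLeptin pools and 10.96, 11.01 and 10.90 in the saline pools. *kmt5b.L* and *kmt5c.L* overlapped, with log2 fold changes of 0.20 and -0.44.

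The subunits of PRC2, the Polycomb complex that methylates histone H3 at silent developmental genes, did not pass. *suz12*, an obligate subunit, was at 10.33, 10.31 and 10.52 in the rxLeptin pools and 9.70, 10.13 and 10.17 in the saline pools. Its groups were apart in this probe set of highest mean, with a log2 fold change of 0.27 (adjusted p = 0.165). The log2 fold changes of its other probe sets were 0.07, 0.24 and -0.08, and only the probe set at 0.24 was apart. *eed.L*, the subunit that binds the finished mark, was at 11.05, 10.92 and 11.13 in the rxLeptin pools and 10.54, 10.64 and 10.95 in the saline pools, overlapping only through saline pool 3. *eed.S* and the catalytic subunit *ezh2.L* had log2 fold changes of 0.20 and -0.03 and overlapped.

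None of the 6 demethylase genes passed, and the copies of *kdm3a*, an enzyme that removes methyl groups linked to silent chromatin, lay in opposite directions. *kdm3a.L* was at 10.27, 10.37 and 10.04 in the rxLeptin pools and 10.66, 10.74 and 10.46 in the saline pools. *kdm3a.S* was at 10.73, 10.72 and 10.61 in the rxLeptin pools and 9.91, 10.36 and 10.60 in the saline pools. Both were apart, although saline pool 3 nearly met the rxLeptin pools in *kdm3a.S*. The log2 fold changes were -0.39 in *kdm3a.L* (adjusted p = 0.0753) and 0.37 in *kdm3a.S* (adjusted p = 0.0914). *kdm1a.S*, a flavin-dependent demethylase of the CoREST complex, overlapped in its probe set of highest mean, at 11.21, 11.28 and 11.31 in the rxLeptin pools and 11.27, 11.30 and 11.30 in the saline pools. *kdm2b.L*, *kdm6a.S* and *kdm7a.S* overlapped, with log2 fold changes of -0.03, -0.09 and -0.03.

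**Figure D3:**
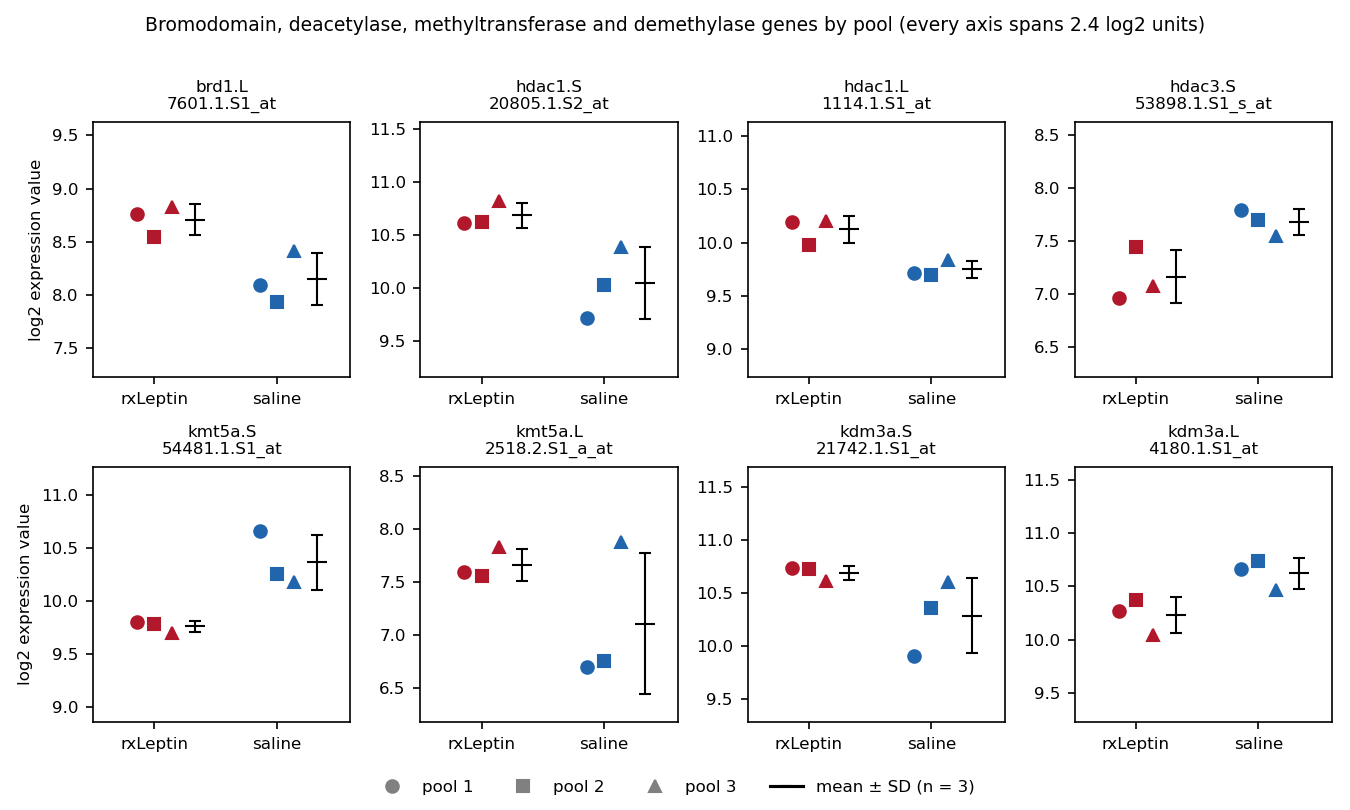
Log2 expression value (vertical axes, each spanning 2.4 log2 units) of *brd1.L*, *hdac1.S*, *hdac1.L*, *hdac3.S*, *kmt5a.S*, *kmt5a.L*, *kdm3a.S* and *kdm3a.L* in rxLeptin pools (red) and saline pools (blue), with the mean and SD (n = 3). The groups overlap only in *kmt5a.L*, where saline pool 3 is at 7.87, and *kmt5a.S* has the tightest rxLeptin values, 9.70 to 9.80.

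No SWI/SNF or ISWI gene passed. Groups were apart in 6 of the 11, 5 higher after rxLeptin and 1 lower. Of all genes 27.7% were apart, 11.1% higher and 16.6% lower. *smarcc2.L*, a core scaffold subunit of SWI/SNF, was at 10.88, 10.76 and 10.60 in the rxLeptin pools and 10.31, 10.58 and 10.42 in the saline pools. Its log2 fold change was 0.25 (standard error 0.10, adjusted p = 0.16). The 4 others apart and higher were *smarca5.S*, the ISWI ATPase, and the SWI/SNF subunits *smarcb1.S*, *smarcd1.L* and *smarce1.L*, at log2 fold changes of 0.19, 0.06, 0.11 and 0.19. These differences were small, and *smarcb1.S* averaged 12.03 ± 0.03 in the rxLeptin pools and 11.98 ± 0.02 in the saline pools (SD, n = 3 each). *smarcd3.S*, a subunit exchanged between tissues, was the one that was apart and lower, at 7.64, 7.34 and 7.41 in the rxLeptin pools and 7.80, 7.73 and 7.86 in the saline pools. Its log2 fold change was -0.32 (adjusted p = 0.116). Second probe sets of *smarcc2.L*, *smarcd1.L* and *smarcd3.S* had log2 fold changes of the opposite sign, -0.09, -0.18 and 0.15. The other probe sets of *smarce1.L* kept its sign, at 0.08 and 0.10. The alternative ATPases of SWI/SNF overlapped, *smarca4.S* with a log2 fold change of 0.25 and *smarca2.L* with -0.04. Further *smarca2.L* probe sets also overlapped, at -0.21 and 0.35. *smarcd2.L*, another exchangeable subunit, overlapped through rxLeptin pool 1 at a log2 fold change of 0.26 (adjusted p = 0.205). *smarcc1.L* and the ISWI ATPase *smarca1.L* overlapped too, at 0.07 and -0.25.

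None of the 4 CHD remodelers passed and none was apart. *chd4.L*, the ATPase of the NuRD complex, was at 9.85, 9.87 and 9.64 in the rxLeptin pools and 9.38, 9.87 and 9.63 in the saline pools. Only saline pool 1 stood below the rest. *chd7.L*, known for its role in neural crest and brain development, was at 9.11, 9.14 and 9.19 in the rxLeptin pools and 9.45, 9.48 and 9.12 in the saline pools. Saline pools 1 and 2 were above and pool 3 within the rxLeptin pools, with a log2 fold change of -0.27 (adjusted p = 0.123). *chd1.L* and *chd1.S*, copies of a remodeler of transcribed genes, had log2 fold changes of 0.06 and -0.18. A *chd1* probe set annotated to both copies, and so not a member, had its rxLeptin pools below its saline pools and a log2 fold change of -0.32 (adjusted p = 0.1).

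Probe sets of 1 gene often differed. Of the 17 genes with several, the unweighted group means differed in a single direction in 8 and in both directions in 9. In the weighted fit *smarcc2.L* and *kdm2b.L*, which are among the 8, had log2 fold changes of both signs, 0.25 and -0.09, and -0.03 and 0.17. Some of these differences were near 0, such as -0.02 against 0.33 in *kdm1a.S*. The share over all genes with several probe sets was not computed. In 4 genes, *chd7.L*, *kat7.L*, *set.S* and *smarcd1.L*, 1 probe set had all rxLeptin pools above the saline pools and another had all of them below. In *chd7.L* the 4 probe sets had differences from -0.54 to 0.34. Among the genes with a called member, both probe sets of *hdac1.S* rose, all 3 of *kmt5a.S* were lower on average, and those of *brd2.S* and *set.S* lay on both sides of 0.

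For 9 genes both homeologs were measured, and in 6 of these pairs the unweighted rxLeptin mean was above the saline mean in 1 copy and below it in the other. Some of these differences were near 0, such as -0.02 in *kat7.S*, -0.07 in *crebbp.S* and -0.09 in *kmt5b.S*. In the weighted fit the log2 fold changes of *crebbp* had the same sign, 0.11 and 0.03 for L and S. Those of *set*, not among the 6, had opposite signs there, 0.03 and -0.17. The share of such pairs over the whole array was not computed. The difference of L minus the difference of S was 1.15 for *kmt5a* (standard error 0.51), -0.79 for *kdm3a* (standard error 0.27), 0.31 for *kmt5b* (standard error 0.14) and 0.23 for *set* (standard error 0.07), with *set.S* taken in its probe set of highest mean. In these 4 pairs the L minus S values of the rxLeptin pools and of the saline pools did not overlap, a share not computed over the whole array. The exact two-sided permutation test gave p = 0.1 for each, the smallest that 3 pools against 3 allow, so p below 0.05 could not be reached, and 0.225 after Benjamini-Hochberg adjustment over the 9 pairs. In the remaining 5 pairs, *chd1*, *crebbp*, *eed*, *hdac1* and *kat7*, the values overlapped. With the *actin* covariate the L and S log2 fold changes were -0.08 and -0.32 for *kmt5a* and -0.24 and 0.04 for *kdm3a*. In that fit they were 0.0044 and -0.06 for *kmt5b* and 0.18 and -0.04 for *set*, and none passed. The copies of *hdac1* and of *eed* were both higher after rxLeptin. The called *set.S* probe set differed by 0.72 and the second *kat7.L* probe set by -0.25. In *set* and *kat7*, whether the copies lay in opposite directions thus depended on the probe set taken.

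**Figure D4:**
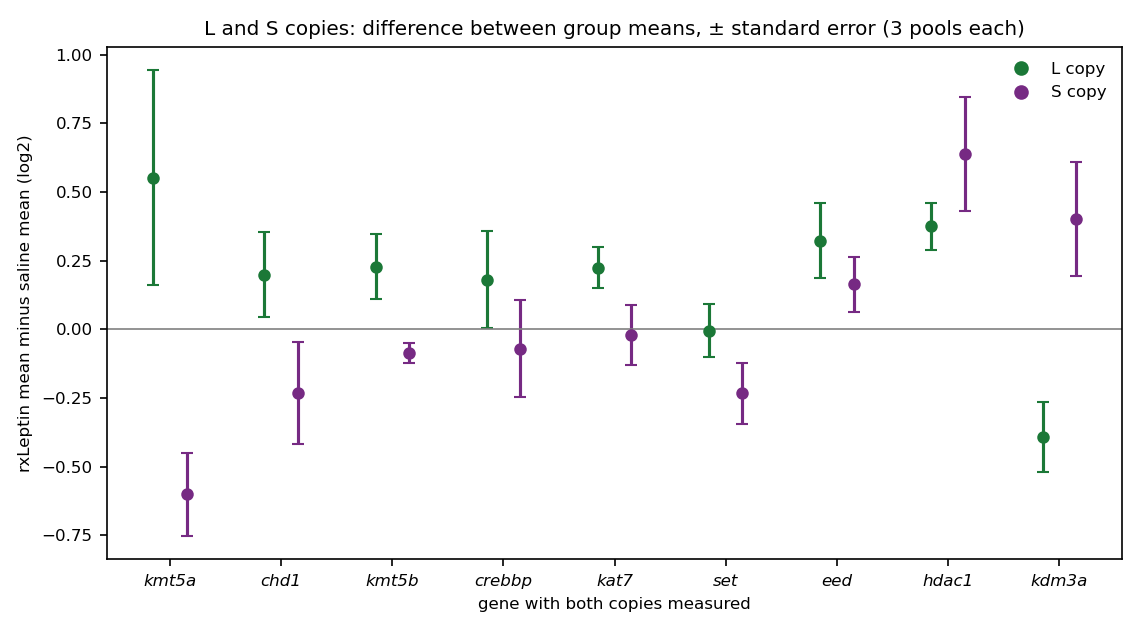
Mean of the rxLeptin pools minus mean of the saline pools (log2, vertical axis) for the L copy (green) and the S copy (purple) of the 9 genes with both copies measured, with bars of ± 1 standard error of the difference (3 pools in each group). *kmt5a* and *kdm3a* show the widest separation of copies, 1.15 and -0.79 for L minus S, and *hdac1* and *eed* have both copies above 0.

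Of 145 other chromatin genes from a list outside the rule, each in its probe set of highest mean, 4 rose and 5 fell, or 6.21%. Groups were apart in 41, or 28.3%. Of all genes treated in this way 3.3% were called and 27.7% were apart. Those that rose were *prmt1.S*, an arginine methyltransferase, by 0.83, *cbx2.L*, a Polycomb reader, by 0.70, *taf3.S*, a subunit of the general transcription factor TFIID, by 0.64 and *chaf1a.L*, a subunit of chromatin assembly factor, by 0.45. Those that fell were *sap30.S*, of the Sin3 deacetylase complex, by 0.62, the histone chaperone *asf1a.L* by 0.60, the chromatin-binding *phf6.L* by 0.53, *ing2.L*, another reader of the Sin3 complex, by 0.49 and *anp32b.L*, a chaperone related in function to *set*, by 0.41. In *prmt1.S* the values were 13.09, 12.97 and 13.13 in the rxLeptin pools and 12.01, 12.10 and 12.73 in the saline pools. In *asf1a.L* they were 6.94, 6.93 and 7.21 in the rxLeptin pools and 7.63, 7.52 and 7.70 in the saline pools. Groups were apart in both. The other copies of these called genes did not pass. *prmt1.L* and *ing2.S* leaned with their copies, at log2 fold changes of 0.35 and -0.67, and *taf3.L* leaned against *taf3.S*, at -0.41. The list's median difference was -0.0015.

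All 5 called members kept their direction in each fit that was run, and their size varied with the arrays in the fit, rxLeptin pools included. For example, *brd2.S* was at -1.52 without rxLeptin pool 1 and at -1.11 without rxLeptin pool 3. With the *actin* difference of each array as a covariate none passed, and the estimates were 0.37 for *brd1.L*, -0.43 for *brd2.S*, 0.25 for *hdac1.S*, 0.34 for *set.S* and -0.32 for *kmt5a.S*. The covariate was 0.60 to 0.67 in rxLeptin pools and 0.77 to 2.83 in saline pools. As these ranges do not overlap, the fit cannot fully separate the covariate from treatment. In that fit 1 of the 55 members, *kmt5a.S*, had an unadjusted p below 0.05 in limma, and no probe set on the array passed adjustment, 1527 of them having an unadjusted p below 0.05. Saline pool 1 was the saline pool farthest from the rxLeptin mean in 4 of the 5, the exception being *brd1.L*, and saline pool 3 was the nearest in all 5. Over all probe sets saline pool 1 was the farthest in 57.6% and saline pool 3 the nearest in 50.6%.

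**Figure D5:**
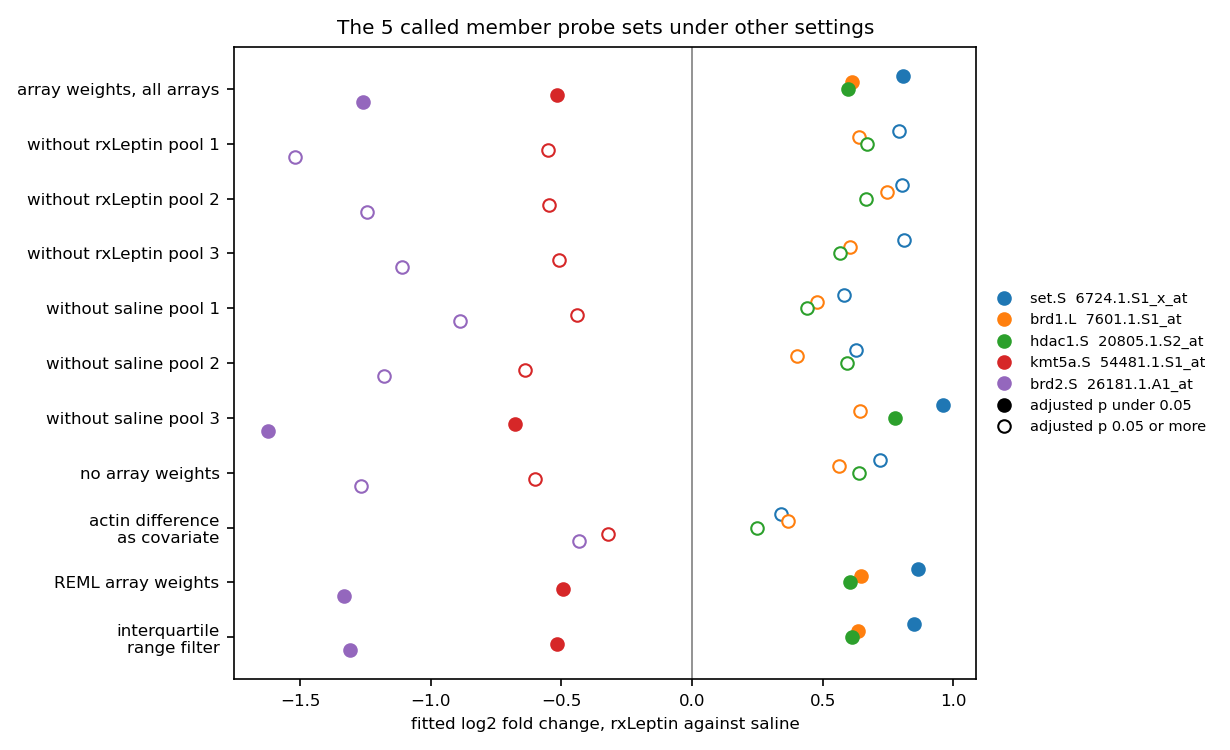
Fitted log2 fold change of rxLeptin against saline (horizontal axis) of the 5 called members in the fit reported here and in other fits (rows), with filled points for an adjusted p under 0.05 in limma and open points for 0.05 or more. Every point keeps its side of 0, the estimates with the *actin* covariate lie nearest to 0, and filled points outside the top row occur without saline pool 3, with REML array weights and with the interquartile range filter.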

How the data were processed

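RNA from 6 pools of tadpole brain tissue was measured on 1-colour arrays. The authors made the deposited log2 expression values with Robust Multichip Average (RMA) in the affy package, which removes background, gives the arrays a common distribution and summarises the probes in a probe set. The submitters' processing notes also name limma. Columns of other samples numbered 0.

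Of 32635 probe sets, 96 controls were removed and 32539 tested. The linear model held treatment alone and was run in limma (version 3.58.1, R version 4.3.3) with gene-by-gene array weights, moderated variances (eBayes) and Benjamini-Hochberg adjustment over all probe sets, at a threshold of 0.05. Log2 fold changes and standard errors are those of the weighted fit, and differences of means are unweighted. The array weights were 1.54, 2.69 and 0.77 for rxLeptin pools 1 to 3 and 0.37, 1.84 and 0.47 for saline pools 1 to 3. The study's methods also filter probe sets of low variance, without stated limits, and this was run as an alternative because such a filter favours genes that differ. The fit was tested on simulated data with known changes and with independent noise of the same spread on every array. Such data do not hold the differences between saline pools, so that test cannot show how the fit handles them.

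Gene symbols come from the platform annotation, in which 15495 probe sets had 1 symbol, 279 several and 16765 none. Of the 77 member probe sets, 74 matched a table of the Xenopus_laevis_v10.1 assembly by gene ID, used for names only. The named genes were every probe set of *brd2* and *set*, called members whose groups were apart with their other copy, and the extremes of each role group, and other members were added to account for all of them. The members, role groups, marker and chromatin lists were chosen with earlier results of these data known. Alternatives covered the weights, the filter, centring, the variance prior, probe sets that bind several transcripts, the *actin* covariate and each array left out. Plots used matplotlib (version 3.10.9, Python version 3.11.15). No sequence was used.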

Additional observations from a re-analysis of the deposited data

How the results depend on the processing

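The count of members that rose, 3 in the reported fit, was 0 without array weights, 9 with REML array weights, 5 after a filter on the interquartile range (cut at 0.173, which kept 28 members) and 0 with the *actin* difference as a covariate. The count that fell, 2 in the reported fit, was 0, 6, 3 and 0 in the same settings. Leaving out 1 array at a time gave 0 to 3 that rose and 0 to 2 that fell. Among all probe sets, 894 rose and 503 fell in the reported fit, 3779 and 3635 with REML weights, 2382 and 1612 of 16269 after the filter, and 0 without weights (6037 at an unadjusted p below 0.05), without saline pool 1 (3267) and without saline pool 2 (3420). Settings chosen after seeing the data were the filter without weights, which gave 0 that rose and 0 that fell (10 members at an unadjusted p below 0.05), the filter with REML weights, whose estimation did not converge, which gave 8 and 7, and 1 probe set per gene, which gave 2 and 1. Without probe sets that can bind several transcripts, 2 rose and 2 fell among 45, and centring the arrays on their medians gave 3 and 3. A variance prior that follows mean expression gave 3 and 2. No called member changed sign in any of these settings, while among all 55 members 11 estimates did so with the *actin* covariate, 4 without array weights, 2 of 28 with the filter and no weights, and 3 to 7 when 1 array was left out, the most without saline pool 2. No paired analysis was possible because the labels give no replicate numbers. The cause of these differences was not tested. With 3 arrays per group the precision is limited by the number of pools.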
